A study of Homo sapiens and Mus musculus with 99 samples.

Results

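A set of 5 Krüppel-like factors was followed through every group of the series: KLF2, KLF4, KLF5, KLF6 and KLF10 in human cells and Klf2, Klf4, Klf5, Klf6 and Klf10 in mouse lung epithelial cells. The human genes were taken by symbol and the mouse genes by their Ensembl IDs, and they make up 5 of the 57820 human and 5 of the 55401 mouse genes counted. The choice of genes was made with earlier results of these data known, although the rule itself uses no value. All 10 genes passed the filter on low counts in every experiment. In the human cell lines each of the 5 genes rose with every complete perforating stimulus, and none passed the test with a single protein or with an extract lacking one of them. In mouse lung epithelium Klf5, Klf6 and Klf10 rose in most comparisons, whereas Klf2 fell in 4 of the 12 stimulus comparisons and rose in 1. Of all genes, 2.4 to 33.7% rose and 0.518 to 34.4% fell in these 12 comparisons. In the 4 where Klf2 fell, 18.8 to 32.7% of all genes fell, and some of its falls were lost without 1 library.

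Krüppel-like factors are zinc-finger transcription factors that bind GC boxes and CACCC boxes through their C-terminal fingers, and their N-terminal parts recruit activators or repressors. KLF2 and KLF4 are closely related and, in endothelium and other cells, are driven by the kinase ERK5 through MEF2 factors. KLF5 supports growth of epithelial progenitor cells, also in the lung, KLF6 is induced by tissue injury, and KLF10 is an early gene of transforming growth factor beta that acts through the SIN3A corepressor.

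The study asked how airway epithelial cells respond early to pore-forming proteins. RNA was sequenced from 99 libraries in 47 groups of 13 experiments, of which 51 libraries in 24 groups came from human lines and 48 libraries in 23 groups from mice. NCI-H1437 (called H1437 here) and NCI-H292 (H292) are non-small cell lung cancer lines, and their RNA was taken after 4 h. Mouse lung epithelial cells were isolated 6 h after intranasal dosing, and neither the isolation method nor strain, age or dose is stated in the labels. DPBS is the buffer given to the control group of every experiment, and ALT is the extract of the mould Alternaria alternata. WT ALT, aegs KO ALT and aegl KO ALT are extracts labelled as wild type or as lacking aegs or aegl. Aeg-S and Aeg-L were given singly or together as Aeg-S/L. Lysenin, PlyA2EryB and LSL are pore-forming proteins or protein pairs from other organisms.

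H1437-1 compared DPBS, ALT and ALT with Tra, with 3 libraries each. All other human experiments had 2 libraries a group: H1437-2 held DPBS, Aeg-L, Aeg-S, Aeg-S/L and Aeg-S/L with Tra, and H1437-3 and H292-2 held DPBS, Aeg-S/L, Aeg-S/L with BAPTA-AM and Aeg-S/L with EGTA. H1437-4 and H292-1 held DPBS and the extracts WT ALT, aegs KO ALT and aegl KO ALT. Tra is an abbreviation that the labels do not spell out beyond calling the table one of a MEK inhibitor. BAPTA-AM chelates calcium inside cells and EGTA outside them. By the sample labels, no group received an inhibitor without a stimulus among the libraries analysed here. In mice, Lung1 compared DPBS with ALT, with 3 libraries each, and all other experiments had 2 libraries a group. Lung2 held DPBS, Aeg-L, Aeg-S and Aeg-S/L, and Lung3 held DPBS and the 3 extracts. Lung4, labelled WT, held DPBS, Lysenin, PlyA2EryB and LSL. IL33KO1 (DPBS, Aeg-S/L and ALT) and IL33KO2 (DPBS, Lysenin, PlyA2EryB and LSL) came from IL-33 KO mice, and Rag2gc (DPBS and Aeg-S/L) from Rag2-/-; gc-/- mice, which lack lymphocytes. Labels of Lung1 to Lung3 give no genotype. Mice deficient in these genes carry the deficiency in control and treated groups alike.

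Library totals ran from 32425310 to 53172930 counts in human and 29611231 to 66327693 counts in mouse libraries. No library was a copy of another of its own group, since the lowest chi-square per degree of freedom between replicates was 2.815. Libraries of different groups were not compared in this way. The design text speaks of biological replicates, without saying whether they came from separate cultures or pooled animals, so p-values measure the spread between these libraries. In the human lines all 4 epithelial markers were expressed, up to 2596 CPM (counts scaled to library size). Of the markers of other cell types, 2 of 3 endothelial genes (CDH5 and VWF), 1 of 4 fibroblast genes (COL1A1) and 1 of 4 leukocyte genes (S100A8) exceeded 1 CPM in some library, up to 75.1, 225.7 and 18.2 CPM in turn for each list. Mouse markers, and the genes removed in the knockout mice, were not analysed here, so the purity of the mouse cells was not checked.

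In the human files (build hg19) KLF2 (ENSG00000127528.5) spans chr19:16435628-16438685 on the plus strand. KLF4 (ENSG00000136826.10) lies at chr9:110247133-110252763 on the minus strand. KLF5 (ENSG00000102554.9) lies at chr13:73629114-73651676 on the plus strand, and KLF6 (ENSG00000067082.10) at chr10:3818188-3827473 on the minus strand. KLF10 is ENSG00000155090.10. Values are counts per gene, and 0 of the members of either species overlapped another gene in the files.

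KLF2 and KLF4 moved together most closely among the members, and the 250 bases before their RefSeq start sites (GRCh38.p14, both given 5′ to 3′ on the gene's strand) are printed to show how their promoters differ. Capitals mark matches to a GC box (GGGCGG, or CCGCCC on the other strand) and to a MEF2 site. The KLF2 stretch is chr19:16324576-16324825, plus strand, and the KLF4 stretch is chr9:107489770-107490019, minus strand.
KLF2: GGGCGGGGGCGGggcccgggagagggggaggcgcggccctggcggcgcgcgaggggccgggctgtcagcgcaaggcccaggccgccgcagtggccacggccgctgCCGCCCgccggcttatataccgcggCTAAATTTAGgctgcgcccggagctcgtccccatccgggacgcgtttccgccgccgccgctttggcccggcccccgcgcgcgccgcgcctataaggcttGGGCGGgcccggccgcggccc
KLF4: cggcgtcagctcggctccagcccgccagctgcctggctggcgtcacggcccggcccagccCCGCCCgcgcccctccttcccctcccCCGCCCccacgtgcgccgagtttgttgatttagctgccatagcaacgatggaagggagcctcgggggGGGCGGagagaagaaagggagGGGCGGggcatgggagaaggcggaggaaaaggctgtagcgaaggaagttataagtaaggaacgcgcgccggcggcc
The KLF2 stretch held 1 MEF2 site, CTAAATTTAG, with its first base at -120 from the start site, and no KLF4 match to a MEF2 site was found.

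Both strands of the 300-base windows from 250 bases before to 50 after the start site were searched for a MEF2 site, a CArG box, a CRE (TGACGTCA), an AP-1 site (TGANTCA), a GC box and CACCC. The KLF2 window held 6 GC boxes, the KLF4 window 4 and the KLF6 window 2. Of the windows listed for KLF5, one had 0 GC boxes and 1 CACCC match and the other 2 of each. No window of these 4 genes held a CArG box, CRE or AP-1 match. Over 35116 promoter windows of the RefSeq table, 2.99% held a MEF2 site, 1.29% a CArG box, 1.85% a CRE, 7.71% an AP-1 site, 45% a GC box and 59.9% CACCC. KLF10 is named only. These matches are letters in a window, and binding was not measured.

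Before any stimulus, the members differed widely in level. Levels of different genes are compared as CPM per kilobase of exon (per-length CPM), and tables of different experiments were scaled separately. In the 9 H1437 DPBS libraries the median per-length CPM was 25.4 for KLF5, 7.94 for KLF4, 7.45 for KLF10, 3.45 for KLF6 and 0.342 for KLF2. The ranges of KLF4, KLF10 and KLF6 overlapped between neighbours, whereas KLF5 lay above and KLF2 below all others. In the 4 H292 DPBS libraries the order was KLF5 (54.7), KLF10 (5.87), KLF6 (3.98), KLF4 (2.197) and KLF2 (1.25), and the ranges of KLF4 and KLF2 overlapped. KLF2 rested on few counts there, with 18 to 46 counts in an H1437 and 77 to 133 in an H292 DPBS library.

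**Figure D1:**
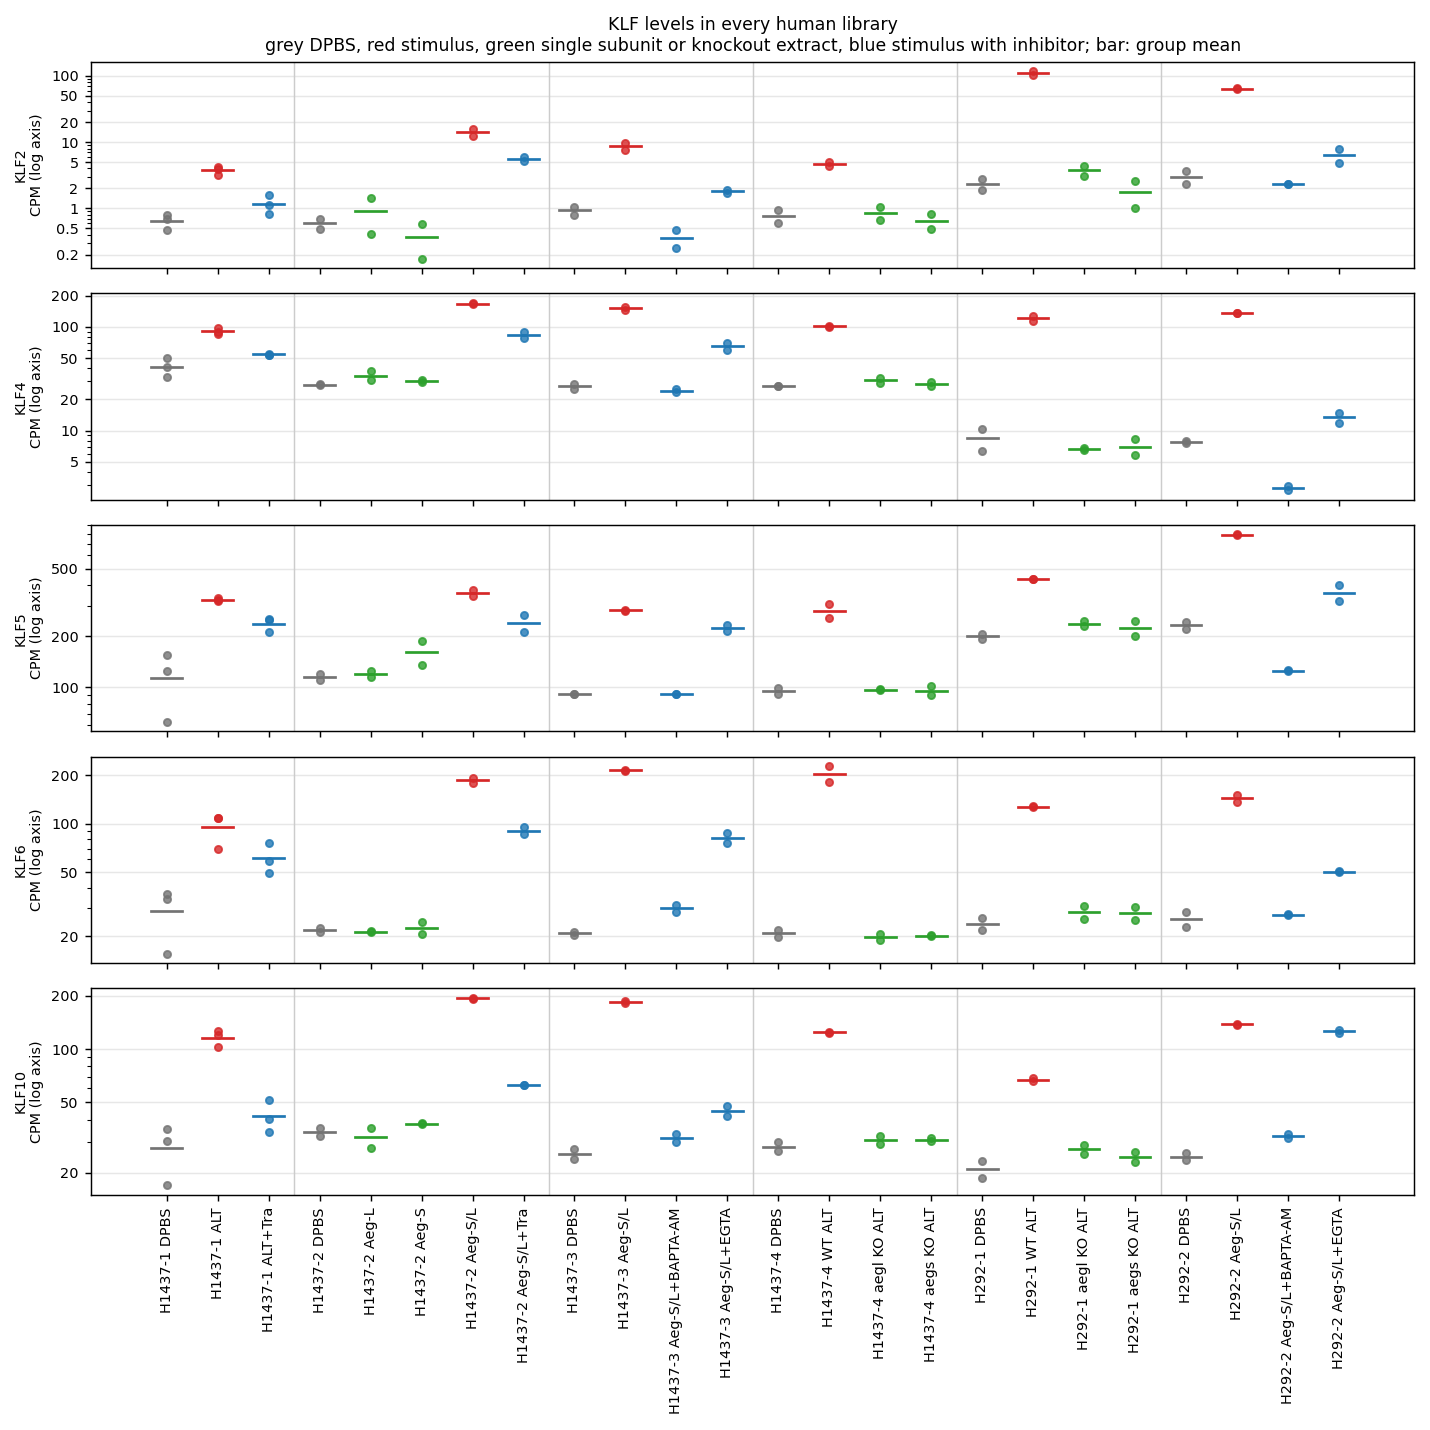
CPM on a log axis in each human library of each group, 1 panel per gene; points are libraries, bars group means, grey DPBS, red complete stimuli, green single proteins and KO extracts, blue stimulus with inhibitor. All 30 stimulus groups lie above their own DPBS libraries, and the green points lie near the grey ones.

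All 5 genes rose in each of the 6 human comparisons of a complete stimulus with its DPBS control, 30 of 30 tests, and in 30 of 30 the libraries of the groups did not overlap. How many of all genes had libraries without overlap was not counted. The share of all tested genes that rose was 3.59% with ALT in H1437-1, 3.63% with Aeg-S/L in H1437-2, 15.4% with Aeg-S/L in H1437-3, 15.8% with WT ALT in H1437-4, 11.6% with WT ALT in H292-1 and 22.1% with Aeg-S/L in H292-2. Over the 6 comparisons the median log2 change was 3.81 for KLF2, 2.80 for KLF6, 2.54 for KLF4, 2.31 for KLF10 and 1.60 for KLF5. Tests were edgeR's quasi-likelihood test with Benjamini-Hochberg adjustment over all genes tested, called at an adjusted p under 0.05.

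KLF2, known for holding endothelium and T cells quiescent, was barely expressed in control cells. In H1437-1 its DPBS libraries held 0.682, 0.465 and 0.796 CPM and its ALT libraries 3.22, 3.90 and 4.17. In H1437-4 the DPBS libraries held 0.959 and 0.598 CPM and the WT ALT libraries 5.04 and 4.36. In both extract experiments in H1437 every treated library thus lay above every control. Aeg-S/L gave 15.6 and 12.5 CPM against 0.689 and 0.494 in H1437-2, and 9.64 and 7.62 against 1.07 and 0.795 in H1437-3. Extract and Aeg-S/L stood in separate experiments, and their difference was not tested. The log2 change was 2.53 (SE 0.34) and 2.58 (SE 0.37) with the extracts and 4.56 (SE 0.53) and 3.21 (SE 0.29) with Aeg-S/L, with adjusted p from 0.001771 to 3.129e-07. In H292 the levels reached were higher. They were higher with WT ALT in H292-1 than with Aeg-S/L in H292-2, a difference across experiments that was not tested. WT ALT took KLF2 from 1.87 and 2.76 CPM to 118 and 105, and Aeg-S/L took it from 2.29 and 3.71 to 64.7 and 64.3. These are log2 changes of 5.60 (SE 0.35, adjusted p = 2.454e-06) and 4.42 (SE 0.18, adjusted p = 2.789e-13), or 48.5-fold and 21.4-fold.

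KLF4, a factor of differentiating epithelium and of pluripotent cells, held 32.6, 40.8 and 50.3 CPM with DPBS and 84.4, 89.4 and 96.6 with ALT in H1437-1. In the other H1437 experiments the controls lay closer together. Aeg-S/L gave 164.5 and 170.3 CPM against 27.4 and 28.1 in H1437-2, and 144.9 and 155.8 against 28.4 and 25.4 in H1437-3. WT ALT gave 102 and 99.9 against 27.1 and 26.8 in H1437-4. The log2 changes were 1.13 (SE 0.20), 2.59 (SE 0.18), 2.48 (SE 0.09) and 1.91 (SE 0.08) in the order of the experiments. H292 started lower and reached similar levels. WT ALT took KLF4 from 6.44 and 10.5 CPM to 127 and 114, a log2 change of 3.84 (SE 0.24, adjusted p = 2.376e-06). Aeg-S/L took it from 7.68 and 7.87 to 136 and 134, a log2 change of 4.12 (SE 0.11, adjusted p = 1.562e-16).

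KLF5, the member with the highest level before stimulation, had the smallest log2 change in 5 of the 6 comparisons, the exception being H1437-1, where KLF4 had it. In H1437-1 its DPBS libraries held 62.6, 124 and 155.5 CPM and its ALT libraries 326, 322 and 335. The first DPBS library of H1437-1 was also the lowest for KLF4, KLF6 and KLF10. In H1437-2, DPBS gave 119.9 and 110.3 CPM and Aeg-S/L 343 and 373, and in H1437-3 DPBS gave 91.8 and 91.0 and Aeg-S/L 284 and 283. In H1437-4, DPBS gave 98.9 and 90.9 and WT ALT 256 and 307.5. The 4 log2 changes in H1437 lay between 1.52 (SE 0.29) and 1.64 (SE 0.20). In H292, WT ALT took KLF5 from 193 and 205.5 CPM to 432 and 436, and Aeg-S/L took it from 243 and 219.9 to 795 and 789. The changes were 1.12 (SE 0.13) and 1.78 (SE 0.08) on the log2 scale, and the Aeg-S/L libraries of H292 held the most KLF5 of all human libraries.

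KLF6, an injury-induced factor, rose most in H1437 with Aeg-S/L and WT ALT. Its DPBS libraries held 15.5, 36.4 and 34.2 CPM in H1437-1 and its ALT libraries 70.1, 108 and 108. Aeg-S/L took it from 21.2 and 22.3 to 181 and 193 in H1437-2 and from 20.4 and 21.1 to 215 and 218 in H1437-3. WT ALT took it from 21.7 and 19.8 to 229 and 181 in H1437-4. The log2 changes were 1.73 (SE 0.33), 3.10 (SE 0.18), 3.38 (SE 0.08) and 3.30 (SE 0.10). In H292, WT ALT gave 128 and 127 CPM against 26.0 and 21.8, and Aeg-S/L 137 and 151 against 28.1 and 22.8. Those changes were 2.41 (SE 0.15) and 2.50 (SE 0.09), with every treated library above every control.

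KLF10, a repressor that recruits SIN3A, held 17.1, 30.2 and 35.3 CPM with DPBS and 103, 126 and 120.3 with ALT in H1437-1. Aeg-S/L took it from 35.7 and 32.3 to 195.5 and 191 in H1437-2 and from 27.4 and 24.0 to 183 and 187 in H1437-3. WT ALT took it from 29.8 and 26.6 to 125 and 124 in H1437-4. The log2 changes were 2.08 (SE 0.28), 2.51 (SE 0.18), 2.85 (SE 0.09) and 2.14 (SE 0.08). In H292, WT ALT gave 69.1 and 65.7 CPM against 18.8 and 23.3, a change of 1.68 (SE 0.15). Aeg-S/L gave 137.5 and 139 against 25.9 and 23.7, a change of 2.48 (SE 0.07).

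H1437-1 is the least settled of the 6. Without ALT replicate 3, 2 of the 5 genes passed, with KLF4, KLF5 and KLF6 at adjusted p = 0.05639, 0.05498 and 0.06007 in edgeR's quasi-likelihood test, and without ALT replicate 2, 3 passed. The other 5 experiments kept all 5 calls without any 1 library.

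**Figure D2:**
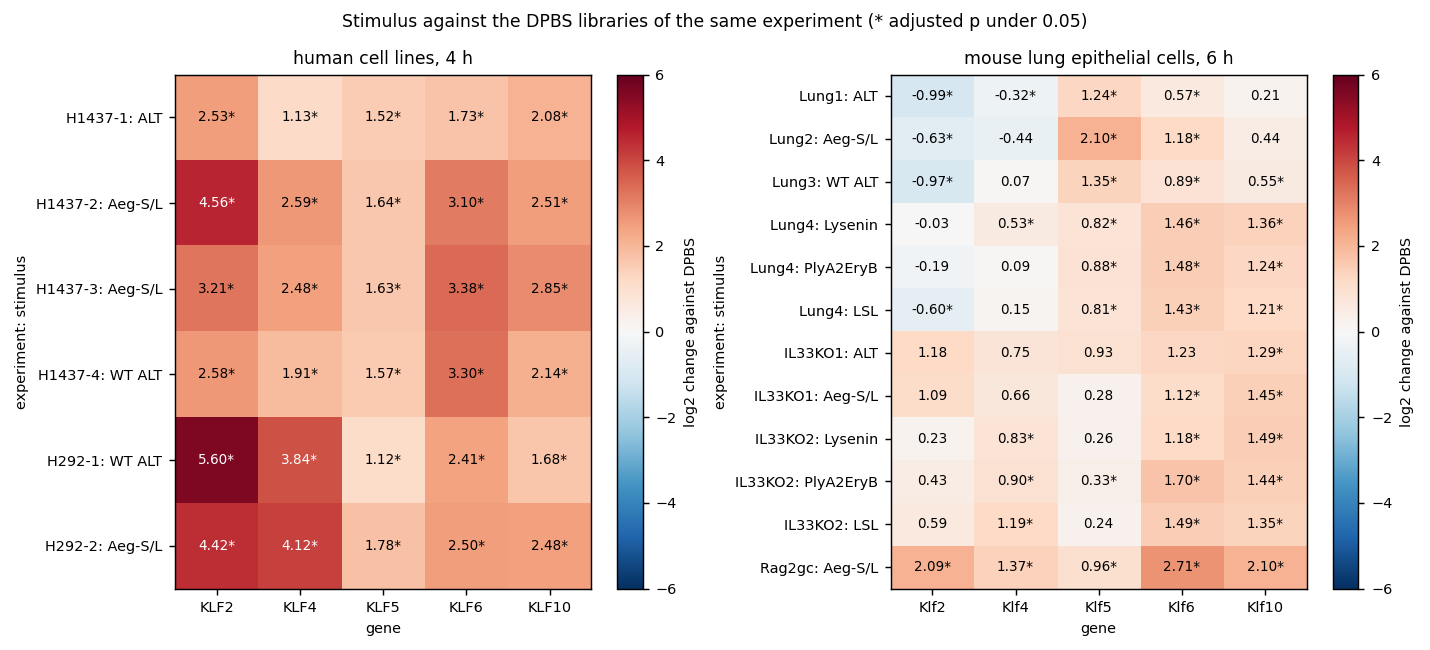
Log2 change of each member against its own DPBS control for each complete stimulus, human comparisons and mouse comparisons; colour gives the change and * an adjusted p under 0.05. All 30 human cells are positive and called, whereas Klf2 is called negative in 4 mouse comparisons and positive in 1.

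Several members rose by different amounts in the lines. The factor with the largest change was KLF2 in both H292 comparisons and in H1437-1 and H1437-2, and KLF6 in H1437-3 and H1437-4. KLF2 rose by 3.0 more (log2, SE 0.50) in H292 than in H1437 with WT ALT and by 1.22 more (SE 0.36) with Aeg-S/L. KLF4 rose by 1.91 more (SE 0.24) and 1.65 more (SE 0.14) in H292. KLF6 went the other way, with differences of -0.92 (SE 0.19) and -0.86 (SE 0.13). For KLF10 the difference passed with Aeg-S/L (-0.35, SE 0.11) and not with WT ALT (-0.49, 95% interval -0.85 to -0.14, adjusted p = 0.07834). For KLF5 neither passed (-0.48, interval -0.82 to -0.14, and 0.16, interval -0.06 to 0.38). In joint edgeR fits 8.9% of all genes differed between the lines with WT ALT and 14.3% with Aeg-S/L. With Aeg-S/L the KLF2 difference was not called without H292 DPBS replicate 1, either H292 Aeg-S/L library, H1437 DPBS replicate 1 or H1437 Aeg-S/L replicate 2 (adjusted p 0.05606 to 0.1791). The KLF10 difference was not called without 1 of 6 libraries, all but H292 DPBS replicate 2 and H1437 DPBS replicate 1 (0.07511 to 0.2067), or with DESeq2 size factors (0.0545), so 2 of the 4 calls were left in the least favourable case. Line and experiment cannot be told apart. Of the endothelial markers, CDH5 lay at 1.54 to 8.94 CPM in H1437 and at 50.7 to 75.1 in H292. The others stayed low in both lines, VWF at or under 2.78 CPM and CLDN5 at or under 0.674. Any part of CDH5 in the KLF2 and KLF4 difference was not tested.

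Across the 51 human libraries the log2 CPM values of KLF2 and KLF4 had a Pearson r of 0.94, the highest of the 10 pairs of members, and the lowest was 0.74 for KLF2 with KLF5. Among 14232 genes, the one most like KLF2 was KLF4 and the reverse held too (r = 0.942). After KLF2, the genes nearest to KLF4 were NR4A2 (0.937), an orphan nuclear receptor, and NCOA7 (0.931), and after KLF4 those nearest to KLF2 were SLC7A5P1 (0.936) and TRIB1 (0.926), a pseudokinase. Nearest to KLF5 were ZFAND5 (0.936), NR4A3 (0.935) and TSC22D2 (0.930). Nearest to KLF6 were ATF3 (0.970), a stress-induced factor, TNFAIP3 (0.964), an NF-kappaB inhibitor, and PPP1R15A (0.960). Nearest to KLF10 were NFKB1 (0.953), TNFAIP3 (0.948) and KDM6B (0.945). These describe libraries that share experiments, controls and stimuli, and no test was made of them. SLC7A5P1 is a pseudogene, whose reads may come from its parent gene.

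Neither Aeg-S nor Aeg-L by itself moved any member past the test in H1437-2. KLF2 held 0.573 and 0.173 CPM with Aeg-S and 0.416 and 1.43 with Aeg-L, overlapping the DPBS values of 0.689 and 0.494. KLF4 held 30.9 and 29.2 CPM with Aeg-S and 30.6 and 37.1 with Aeg-L, all above the DPBS values of 27.4 and 28.1. KLF6 stayed between 20.6 and 24.5 CPM in the 4 libraries, against 21.2 and 22.3 with DPBS. KLF10 held 38.3 and 37.6 CPM with Aeg-S and 35.7 and 27.8 with Aeg-L. Its Aeg-S libraries lay above the DPBS values of 35.7 and 32.3. Those of KLF5 also lay above DPBS, at 135.7 and 187 CPM against 119.9 and 110.3. The KLF5 log2 value was 0.49 (95% interval 0.07 to 0.90, adjusted p = 0.5281 by edgeR). How many of all genes separated in this way was not counted. Thus 0 of 10 tests passed, against 0% of all genes called in either comparison by edgeR's quasi-likelihood test. Over all 16962 genes the unadjusted p was under 0.05 for 1491 with Aeg-S and 186 with Aeg-L, and DESeq2 called 0 of the 10 member values as well.

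Given together, the proteins moved 4 of the 5 genes beyond the sum of their separate log2 changes in H1437-2, where 2.53% of all genes passed that test. The excess was 4.57 (SE 0.77) for KLF2, 3.09 (SE 0.24) for KLF6, 2.45 (SE 0.25) for KLF10 and 2.19 (SE 0.24) for KLF4. For KLF5 it was 1.08 (95% interval 0.50 to 1.67, adjusted p = 0.05677 by edgeR), which DESeq2 called.

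With extracts lacking aegs or aegl no member passed the test against DPBS in either line. In H1437-4, KLF6 held 20.2 and 19.9 CPM with aegs KO ALT and 18.9 and 20.6 with aegl KO ALT, against 21.7 and 19.8 with DPBS and 229 and 181 with WT ALT. In H292-1, KLF2 held 1.03 and 2.55 CPM with aegs KO ALT and 4.41 and 3.07 with aegl KO ALT, against 1.87 and 2.76 with DPBS. KLF4 there held 5.79 and 8.29, and 6.54 and 6.81, against 6.44 and 10.5. In H1437-4 KLF4 held 27.2 and 29.7 CPM with aegs KO ALT and 29.1 and 32.3 with aegl KO ALT, all above the DPBS values of 26.8 and 27.1. With aegl KO ALT in H292-1, KLF5 held 230.5 and 244 CPM against 193 and 205.5, and KLF10 25.8 and 28.9 against 18.8 and 23.3. KLF10 with aegs KO ALT in H1437-4, at 30.2 and 31.4, also lay above its controls of 26.6 and 29.8. Of the 20 KO comparisons, 6 thus had every KO library above every DPBS library, these 5 and KLF2 with aegl KO ALT in H292-1, and the other 14 overlapped. The share of all genes separated in this way was not counted, so these 6 are not read as a response. None of the 20 tests passed, with log2 values from -0.37 to 0.70, and DESeq2 called 0 as well. Of all genes, edgeR called 1.08% with aegs KO ALT and 0.766% with aegl KO ALT in H1437-4, and 0% and 0.12% in H292-1. The unadjusted p was under 0.05 for 1959, 2103, 308 and 2239 genes in the same order, of 16711 genes in H1437-4 and 16613 in H292-1.

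Set against WT ALT, all 20 values fell. In H1437-4, where 14.2% of all genes were lower with aegs KO ALT and 14.5% with aegl KO ALT, the log2 changes were -3.36 and -3.38 for KLF6 and -1.56 and -1.54 for KLF5. In H292-1, where 13.4% and 9.13% were lower, they were -5.97 (SE 0.36) and -4.90 (SE 0.34) for KLF2 and -4.10 (SE 0.24) and -4.17 (SE 0.25) for KLF4. KLF10 changed by -2.02 and -2.01 in H1437-4 and by -1.44 and -1.30 in H292-1. These comparisons share their WT ALT and DPBS libraries with the stimulus comparisons.

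Chelating calcium inside the cell with BAPTA-AM took every member down from its Aeg-S/L level in both lines. Chelating it outside with EGTA took 9 of 10 values down, and with Tra 5 of 10 fell. In all, 24 of 30 values fell against the stimulus. The share of the rise left, the inhibitor group's excess over DPBS as a percentage of the stimulus group's excess in mean CPM, is given with the lowest and highest inhibitor library.

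**Figure D3:**
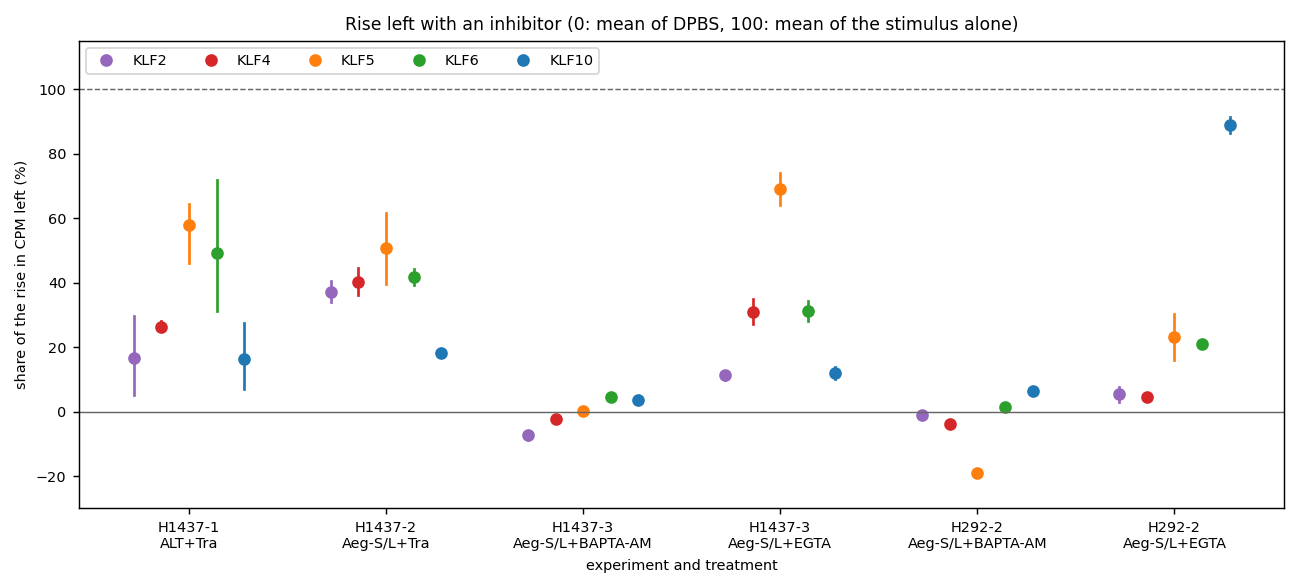
Share of the rise in CPM left with each inhibitor, in percent of the stimulus group's rise over DPBS, per gene; points are means of the inhibitor libraries and lines run from the lowest to the highest library. BAPTA-AM points lie between -19 and 6.55%, and KLF10 with EGTA in H292-2 stands at 88.9%.

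In H1437-3, BAPTA-AM left KLF2 at 0.471 and 0.253 CPM, below both DPBS libraries (1.07 and 0.795) and far below Aeg-S/L (9.64 and 7.62). KLF4 stood at 23.5 and 25.0 CPM and KLF5 at 91.8 and 92.1, near their DPBS levels. KLF6 stood at 31.2 and 28.3 and KLF10 at 29.9 and 33.2, above all DPBS libraries. Against Aeg-S/L the log2 changes were -4.58 for KLF2, -2.63 for KLF4, -1.62 for KLF5, -2.86 for KLF6 and -2.55 for KLF10, all with SE at or under 0.32, where 16.1% of all genes fell. Against DPBS, where 15% of all genes rose and 19.1% fell, KLF6 rose by 0.52 (SE 0.08) and KLF10 by 0.30 (SE 0.09), KLF2 fell by 1.36 (SE 0.37), and KLF4 (-0.15, interval -0.34 to 0.04) and KLF5 (0.01, interval -0.12 to 0.13) did not pass. Without the second BAPTA-AM library KLF6 alone was called, and the KLF2 fall was also lost without DPBS replicate 1 and the KLF10 rise without DPBS replicate 2.

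In H292-2, BAPTA-AM left KLF4 at 2.66 and 2.93 CPM, under the DPBS values of 7.68 and 7.87, and KLF5 at 126 and 124, under 243 and 219.9. KLF2 stood at 2.36 and 2.34 CPM, within the DPBS range of 2.29 to 3.71, and KLF6 at 26.9 and 27.5, within 22.8 to 28.1. KLF10 stood at 33.0 and 31.4, above its controls of 25.9 and 23.7. Against Aeg-S/L the log2 changes were -5.59 (SE 0.12) for KLF4, -4.78 (SE 0.19) for KLF2, -2.66 (SE 0.08) for KLF5, -2.40 (SE 0.09) for KLF6 and -2.10 (SE 0.07) for KLF10, where 20.3% of all genes fell. Against DPBS, where 17.6% of all genes rose and 19% fell, KLF4 fell by 1.47 (SE 0.14) and KLF5 fell by 0.89 (SE 0.08), KLF10 rose by 0.38 (SE 0.07), and KLF2 (-0.36, interval -0.84 to 0.12) and KLF6 (0.10, interval -0.10 to 0.29) did not pass. The column names of these BAPTA-AM libraries lack Aeg-S/L, which only their sample labels give. With no group labelled as BAPTA-AM without Aeg-S/L, its own effect on these genes cannot be told apart from its effect on the response. The share of the rise left lay between -7.38% (KLF2) and 4.61% (KLF6) in H1437-3 and between -19% (KLF5) and 6.55% (KLF10) in H292-2.

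EGTA kept part of the rise. In H1437-3, KLF5 stood at 233 and 215 CPM, with 69.1% of its rise left (64.2 to 73.9%), KLF4 at 70.1 and 60.3 (31%) and KLF6 at 87.7 and 75.4 (31.1%). KLF2 stood at 1.69 and 1.91 CPM (11.3%) and KLF10 at 47.9 and 41.7 (12%). All 5 lay between the DPBS and Aeg-S/L libraries and fell against Aeg-S/L, with log2 changes of -2.26 for KLF2, -2.05 for KLF10, -1.41 for KLF6, -1.21 for KLF4 and -0.34 for KLF5, where 14.8% of all genes fell. Against DPBS 4 of 5 still rose, where 4.19% of all genes did, and KLF2 did not pass (0.95, interval 0.31 to 1.59, adjusted p = 0.08811 by edgeR).

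In H292-2 the order was another. KLF10 stood at 123 and 129 CPM with EGTA against 137.5 and 139 with Aeg-S/L, leaving 88.9% of the rise (86.5 to 91.4%), and its log2 difference from Aeg-S/L was -0.14 (interval -0.27 to -0.00, adjusted p = 0.09667 by edgeR). KLF2 stood at 7.75 and 4.92 CPM and KLF4 at 14.9 and 11.9, with 5.42% and 4.43% of the rise left. KLF5 stood at 321.5 and 400.6 (23.1%) and KLF6 at 49.96 and 50.8 (21%). KLF10 was thus the member EGTA lowered least in H292 and, after KLF2, the one with the least rise left in H1437. The log2 changes were -3.34 for KLF2, -3.33 for KLF4, -1.52 for KLF6 and -1.13 for KLF5, where 21.7% of all genes fell against Aeg-S/L. All 5 rose against DPBS, where 20.1% of all genes did, from 0.64 for KLF5 to 2.34 for KLF10.

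The difference between the lines passed its own test for KLF10 with EGTA, at 1.90 (SE 0.11) higher in H292, and for KLF4 (-2.13, SE 0.13), KLF2 (-1.09, SE 0.31) and KLF5 (-0.80, SE 0.10), where 14.4% of all genes differed. For KLF6 it did not (-0.12, interval -0.36 to 0.13). With BAPTA-AM, where 11% of all genes differed, KLF4 (-3.0, SE 0.15) and KLF5 (-1.08, SE 0.11) fell more in H292, KLF6 and KLF10 fell more in H1437 (0.41 each), and KLF2 did not pass (-0.24, interval -1.19 to 0.71). Without 1 library the KLF6 and KLF10 differences with BAPTA-AM were lost in 6 and 5 of the 8 cases (adjusted p 0.07198 to 0.1584 and 0.05508 to 0.09079), and the KLF2 difference with EGTA in 5 (0.05313 to 0.07898).

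Tra was tested in H1437 only. In H1437-1, KLF10 stood at 40.1, 51.8 and 33.9 CPM with ALT and Tra, against 103 to 126 with ALT, and KLF2 at 1.11, 0.809 and 1.57, against 3.22 to 4.17. Both fell, with log2 changes of -1.47 (SE 0.28) and -1.70 (SE 0.33), with 16.2% and 16.6% of the rise left, where 3.75% of all genes fell. KLF4 stood at 53.8, 55.0 and 53.6 (-0.73, interval -1.16 to -0.31, adjusted p = 0.05491 by edgeR). KLF5 stood at 213, 251.4 and 248 (-0.46, interval -1.08 to 0.15), and KLF6 at 76.5, 58.7 and 49.5 (-0.63, interval -1.34 to 0.07). The KLF6 libraries overlapped with the ALT libraries and those of the other 4 genes did not. Neither fall was called without ALT replicate 2 or without ALT replicate 3, nor was that of KLF2 without ALT and Tra replicate 2. Against DPBS 0 of 5 values were called, where edgeR called 0.283% of all genes, with log2 values of 0.39 to 1.10, unadjusted p under 0.05 for 4 of them, and DESeq2 calling KLF5 and KLF6.

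In H1437-2 with Aeg-S/L and Tra, KLF10 stood at 63.0 and 62.9 CPM against 195.5 and 191, leaving 18.1% of the rise, and fell by 1.62 (SE 0.17). KLF6 stood at 86.6 and 94.9 (41.8% left) and fell by 1.04 (SE 0.17), and KLF4 at 78.3 and 89.9 (40.3% left) and fell by 0.99 (SE 0.17). KLF2 stood at 6.05 and 5.15 (-1.33, interval -2.28 to -0.37, adjusted p = 0.2679) and KLF5 at 211 and 265 (-0.59, interval -1.0 to -0.17, adjusted p = 0.248), and neither passed edgeR's test. Their libraries did not overlap those of Aeg-S/L, and how many of all genes separated in this way was not counted. Of all genes, 1.15% fell. Without any 1 of the 4 libraries 1 of the 3 calls was left. All 5 genes rose against DPBS, by 0.89 to 3.24, where 0.478% of all genes rose, and 2 or 3 did without 1 library.

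Since the 5 members were picked from the KLF and SP family with earlier results of these data known, the rest of the family is described here and not set against them. Of 21 other family genes, 14 to 16 were tested, and with the 6 stimuli 0, 1, 3, 4, 1 and 2 rose and 0, 1, 6, 3, 5 and 2 fell, in the order H1437-1, H1437-2, H1437-3, H1437-4, H292-1 and H292-2. The list's median log2 change lay between -0.27 and 0.06, and that of all genes between -0.03 and 0.01. The share of all genes that rose in these comparisons is given above, and the share that fell was 1.13%, 3.1%, 15.8%, 17.1%, 11.3% and 21.1% in the same order, which also stands beside the lists that follow. KLF16 rose in 4 comparisons, by 0.50, 0.67, 1.37 and 0.95 in H1437-3, H1437-4, H292-1 and H292-2, and KLF9 rose in 3, by 0.67, 0.64 and 0.78 in H1437-2, H1437-3 and H1437-4. KLF11, the closest relative of KLF10, rose by 1.70 (SE 0.12) with Aeg-S/L in H292-2 and by 0.36 with WT ALT in H1437-4. SP1, a general GC-box factor, fell in H1437-3, H1437-4, H292-1 and H292-2 (-0.45, -0.46, -0.45 and -0.44). SP3 fell in H1437-2 (-0.66), H1437-3 (-0.51), H1437-4 (-0.40) and H292-1 (-0.43). KLF3, a CtBP-bound repressor, fell in H1437-3 (-0.27), H292-1 (-0.69) and H292-2 (-0.58). Against Aeg-S/L it rose with EGTA by 0.55 in H1437-3 and 1.42 in H292-2, and fell with BAPTA-AM (-0.89 and -0.22).

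On the ERK5 and MEF2 route, 6 of 8 genes were tested, and with the 6 stimuli 0, 1, 1, 1, 2 and 3 rose and 0, 0, 0, 2, 1 and 2 fell. The list's median lay between -0.05 and 0.28. MEF2D, a MEF2 factor, rose in all but H1437-1, by 1.06, 0.93, 0.58, 0.57 and 0.91. MAP2K5, the kinase above ERK5, rose in H292 by 0.65 and 0.53, and MAP3K2, above it, fell in H1437-4 (-0.33), H292-1 (-0.56) and H292-2 (-0.39). MAPK7, the gene of ERK5, fell by 0.30 in H292-2. Against Aeg-S/L, BAPTA-AM lowered 4 of the 6 in each line, where 16.1% of all genes fell in H1437-3 and 20.3% in H292-2, MEF2D with log2 changes of -1.63 and -1.40 and MEF2A with -0.75 and -0.89, and EGTA lowered MEF2D (-0.67 and -0.27).

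Of 11 cofactors and ubiquitin ligases of KLF proteins, all tested, 0, 0, 4, 0, 1 and 6 rose and 0, 0, 3, 2, 1 and 2 fell, with medians from -0.09 to 0.26. FBXW7, a ubiquitin ligase subunit that takes KLF2 and KLF5 to degradation, rose by 0.92 in H1437-3, 0.71 in H292-1 and 1.15 in H292-2. BTRC, another such subunit, fell in H1437-3, H1437-4, H292-1 and H292-2 (-0.72, -0.72, -0.84 and -0.94). The acetyltransferase genes EP300 and CREBBP fell with BAPTA-AM against Aeg-S/L, EP300 with log2 changes of -1.36 and -2.03 and CREBBP with -1.49 and -2.22. In that comparison 6 of the 11 fell and 1 rose in H1437-3, and 5 fell and 2 rose in H292-2, where 11.6% and 17.6% of all genes rose.

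Of 14 textbook KLF target genes, 13 or 14 were tested, and 4, 3, 4, 4, 2 and 4 rose and 0, 0, 2, 2, 3 and 4 fell, with medians from -0.18 to 0.32. CDKN1A, a cell-cycle inhibitor that KLF4 and KLF6 activate, rose in H1437 by 2.26, 2.02, 2.07 and 2.69 and fell in H292 (-0.86 and -0.20). PLAU, the urokinase gene, rose by 1.93, 3.11, 3.48 and 3.0 in H1437 and by 2.78 in H292-2. SMAD7 rose in H292 by 1.19 and 1.70, and THBD, thrombomodulin, a target of KLF2 in endothelium, fell there (-0.77 and -1.94). COL1A1, also the fibroblast marker, rose in H1437 by 1.33, 1.30, 0.87 and 0.44. The target list thus moved in both directions, and CDKN1A in opposite directions in the lines. Whether these genes respond to the KLF members was not tested.

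The mouse files (build mm10) place Klf2 (ENSMUSG00000055148.7) at chr8:72319033-72321656, plus strand, and Klf4 (ENSMUSG00000003032.8) at chr4:55527143-55532466, minus strand. Klf5 (ENSMUSG00000005148.8) lies at chr14:99298691-99315036, plus strand, and Klf6 (ENSMUSG00000000078.7) at chr13:5861482-5870394, plus strand. Klf10 (ENSMUSG00000037465.10) lies at chr15:38291463-38300706, minus strand. In mouse lung epithelium the starting levels of the same genes depended on the experiment. Over the 7 DPBS libraries of Lung1, Lung2 and Lung3, Klf2 lay at 141, 168 and 247 CPM (lowest, median and highest), Klf4 at 217, 253 and 329, and Klf6 at 547, 614.5 and 717.5. Over the 8 DPBS libraries of Lung4, IL33KO1, IL33KO2 and Rag2gc, Klf2 lay at 4.85, 8.48 and 17.5, Klf4 at 13.2, 21.8 and 43.9, and Klf6 at 115.2, 139 and 176. The ranges of these 3 genes did not overlap between the sets of experiments. Klf10 likewise lay at 65.6, 84.6 and 99.96 against 14.1, 19.7 and 23.1 CPM. Klf5 did not share this, with 47.4, 58.8 and 68.5 against 57.2, 64.8 and 84.95 CPM. The experiments were split here by their levels and are described without a test, and the low set holds Lung4, labelled WT, as well as the knockout strains. The samples of Lung1 to Lung3 and those of the low set also form separate blocks of sample numbers. Whether the levels follow batch, strain or cells was not tested.

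Per kilobase of exon, the medians ran Klf6 (140), Klf2 (91.0), Klf4 (83.1), Klf10 (20.2) and Klf5 (11.3) in Lung1 to Lung3, with overlapping ranges for Klf6 and Klf2 and for Klf2 and Klf4. In the other 4 experiments they ran Klf6 (31.8), Klf5 (12.5), Klf4 (7.14), Klf10 (4.71) and Klf2 (4.59), and the ranges of Klf5, Klf4, Klf10 and Klf2 overlapped between neighbours. In these bulk samples fewer cells of a type and less RNA per cell cannot be told apart. Endothelial cells and leukocytes are rich in Klf2, and their markers were not analysed here.

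**Figure D4:**
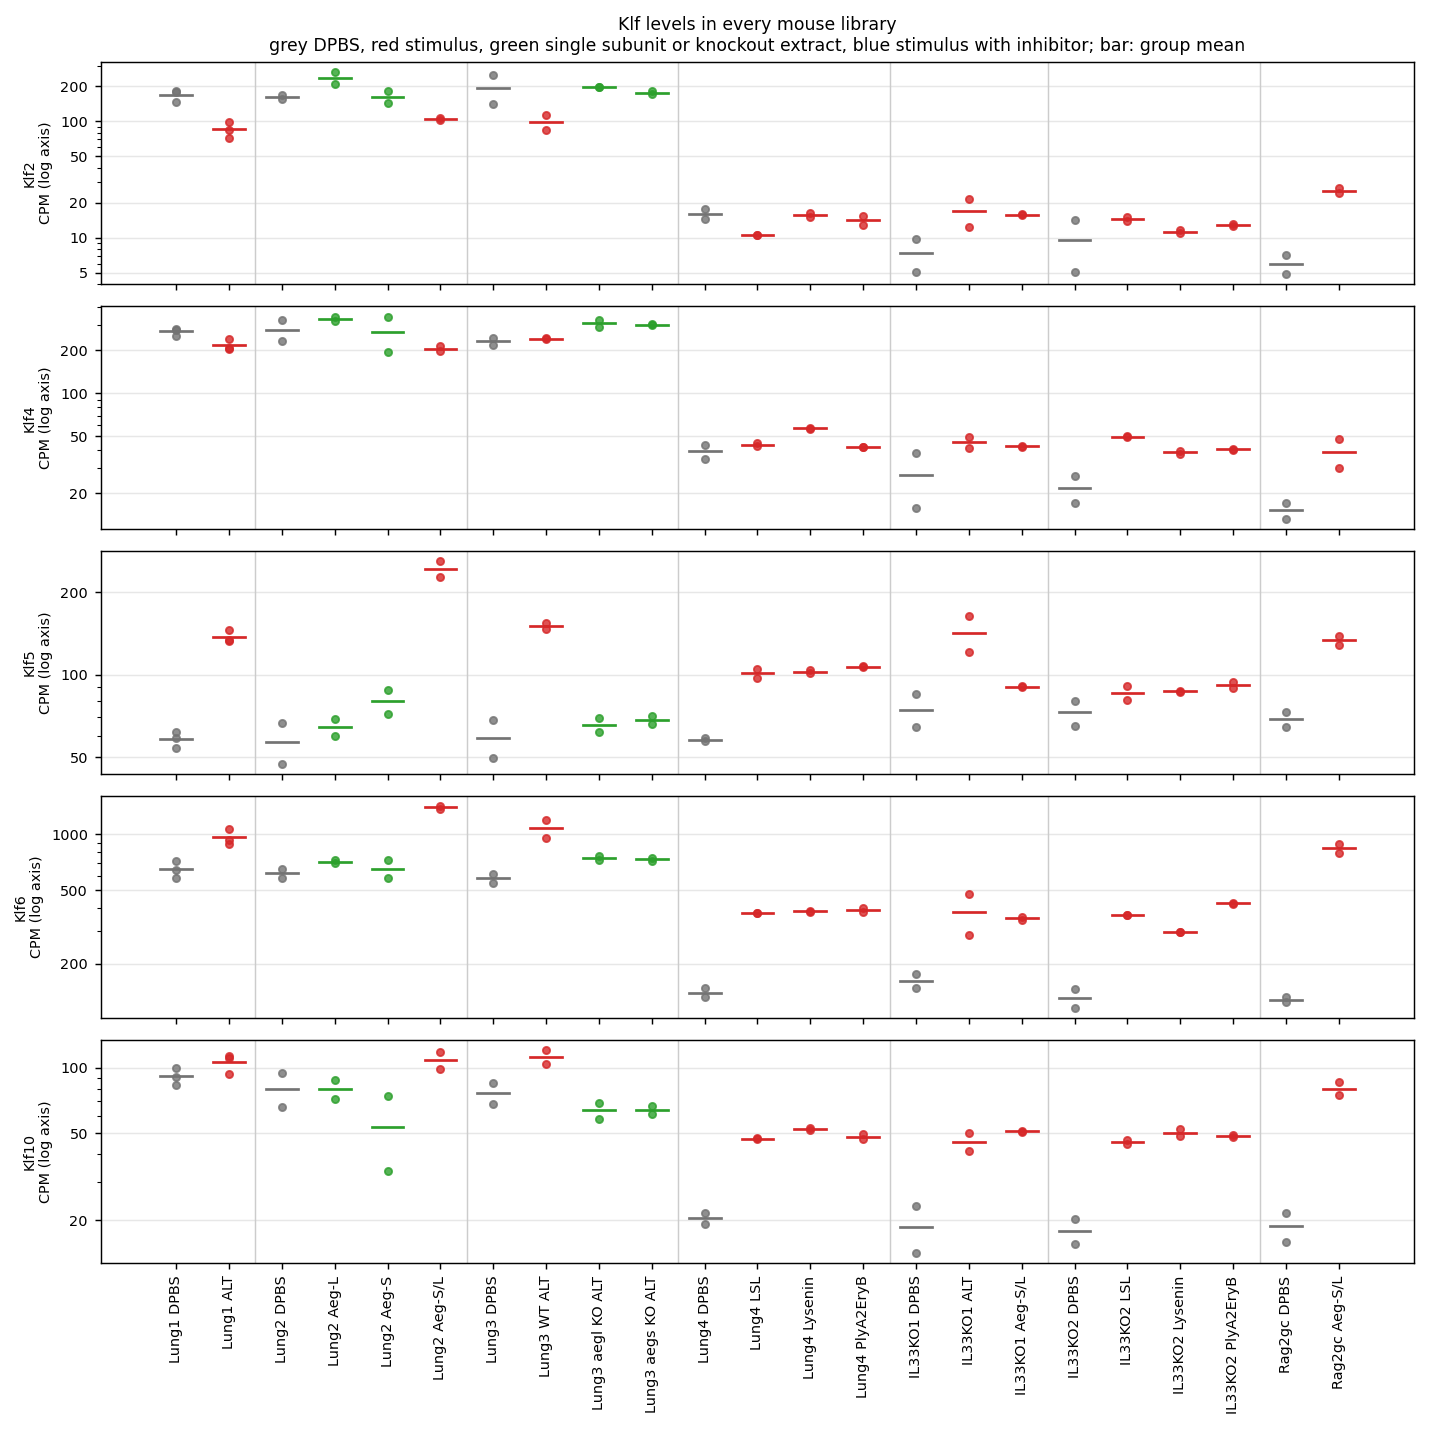
CPM on a log axis in each mouse library of each group, 1 panel per gene; points are libraries, bars group means, grey DPBS, red complete stimuli, green single proteins and KO extracts. Klf2 and Klf4 controls lie high in Lung1 to Lung3 and low in the other 4 experiments, while Klf5 controls lie between 47.4 and 84.95 CPM throughout.

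Across the 12 mouse comparisons of a complete stimulus with DPBS, 35 of 60 values rose, 5 fell and 20 did not pass. Klf6 rose in 11, Klf10 in 10, Klf5 in 8, Klf4 in 5 and Klf2 in 1, and Klf2 fell in 4 and Klf4 in 1. Libraries of the groups did not overlap in 12 comparisons for Klf5 and Klf6, 11 for Klf10, 9 for Klf4 and 7 for Klf2. How many of all genes separated in this way was not counted. The share of all genes that rose and fell was 28.5% and 30.1% with ALT in Lung1, 19.1% and 19.7% with Aeg-S/L in Lung2 and 15.5% and 18.8% with WT ALT in Lung3. In Lung4, 32% rose and 31.6% fell with Lysenin, 32.8% and 31.9% with PlyA2EryB, and 33.1% and 32.7% with LSL. In IL33KO1, 2.4% rose and 0.518% fell with ALT, and 6.4% and 4.53% with Aeg-S/L. In IL33KO2, 20.7% rose and 18.9% fell with Lysenin, 25.7% and 24.6% with PlyA2EryB, and 19.5% and 17.9% with LSL. In Rag2gc, 33.7% rose and 34.4% fell.

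Klf2, the quiescence factor, fell with each stimulus in Lung1, Lung2 and Lung3. Its DPBS libraries held 178, 147 and 181 CPM in Lung1 and its ALT libraries 84.7, 98.5 and 72.5. Aeg-S/L took it from 155.7 and 168 to 107 and 102.5 in Lung2, and WT ALT from 141 and 247 to 84.1 and 114 in Lung3. All treated libraries lay below all controls, with log2 changes of -0.99 (SE 0.11), -0.63 (SE 0.17) and -0.97 (SE 0.26). In Lung4, where it started at 17.5 and 14.5, LSL gave 10.6 and 10.5 (-0.60, SE 0.11), whereas Lysenin (16.4 and 15.1) and PlyA2EryB (15.3 and 12.8) overlapped the controls and did not pass. In Rag2gc it went from 4.85 and 7.15 to 26.5 and 24.2 CPM with Aeg-S/L, a rise of 2.09 (SE 0.15, adjusted p = 9.08e-07 by edgeR). The Lung2 fall was not called without any 1 of its 4 DPBS or Aeg-S/L libraries, at adjusted p of 0.0519 to 0.1086, and the Lung3 fall was not called without either WT ALT library (-0.79, adjusted p = 0.1585, without replicate 1, and -1.22, adjusted p = 0.05107, without replicate 2).

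In the IL-33 KO experiments Klf2 hung on the control libraries, which were far apart, at 5.03 and 9.80 CPM in IL33KO1 and 5.04 and 14.1 in IL33KO2. In IL33KO1, Aeg-S/L gave 15.9 and 15.8 CPM and ALT 21.4 and 12.4, all above both controls, with log2 values of 1.09 (interval 0.17 to 2.01, adjusted p = 0.1068) and 1.18 (interval 0.26 to 2.11, adjusted p = 0.1363) that did not pass edgeR's test. In IL33KO2 the treated libraries held 10.95 to 15.0 CPM, inside or just above the control range, with log2 values of 0.23, 0.43 and 0.59. With Lysenin the value became -0.33 and was called without DPBS replicate 1 and 1.17 without DPBS replicate 2.

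Klf4 fell by 0.32 (SE 0.08) in Lung1, from 279.9, 253 and 284 to 208, 242 and 204 CPM. In Lung2 it held 231 and 329 with DPBS and 215 and 198 with Aeg-S/L (-0.44, interval -1.06 to 0.17), and in Lung3 246 and 217 with DPBS and 239 and 245 with WT ALT (0.07, interval -0.29 to 0.42), and neither passed. Klf4 thus moved little where it started high. In Lung4 it rose with Lysenin, from 43.9 and 34.9 to 56.3 and 57.6 CPM (0.53, SE 0.07), and did not pass with LSL (44.6 and 42.8) or PlyA2EryB (42.4 and 41.8). In IL33KO2 it rose with LSL (49.99 and 49.3 against 17.1 and 26.3; 1.19, SE 0.17), PlyA2EryB (40.3 and 40.8; 0.90, SE 0.17) and Lysenin (39.7 and 37.5; 0.83, SE 0.17). In Rag2gc it rose from 13.2 and 17.2 to 48.2 and 29.8 (1.37, SE 0.20). In IL33KO1 the controls held 15.7 and 38.3, Aeg-S/L 42.2 and 43.1, and ALT 49.3 and 41.7, and neither value passed (0.66 and 0.75, SE 0.38 each).

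Klf5, a factor of epithelial progenitors, rose in all 6 comparisons of Lung1 to Lung4 and in Rag2gc. ALT took it from 53.9, 58.8 and 61.8 to 134, 146 and 133 CPM in Lung1 (1.24, SE 0.08). Aeg-S/L took it from 66.5 and 47.4 to 260 and 228 in Lung2 (2.10, SE 0.20), and WT ALT from 68.5 and 49.6 to 147 and 155 in Lung3 (1.35, SE 0.19). In Lung4 it went from 57.2 and 58.8 to 97.7 and 105 with LSL, 101.2 and 104 with Lysenin and 107 and 106 with PlyA2EryB, log2 changes of 0.81, 0.82 and 0.88 (SE 0.05 each). In Rag2gc it went from 73.2 and 64.5 to 138.5 and 129 (0.96, SE 0.07). In IL33KO1 it held 84.95 and 64.4 with DPBS, 90.02 and 91.2 with Aeg-S/L and 164 and 121 with ALT (0.28, SE 0.20, and 0.93, SE 0.20), and neither passed. In IL33KO2 it held 80.6 and 65.2 with DPBS and 80.8 to 94.0 with the 3 proteins, rising with PlyA2EryB (0.33, SE 0.10) and not passing with Lysenin (0.26) or LSL (0.24). The rise with PlyA2EryB was not called without either PlyA2EryB library, and all 3 were called without DPBS replicate 1. Treated libraries lay above the controls in all 12 comparisons, though barely with LSL in IL33KO2 (80.79 against 80.56 CPM). The share of all genes separated in this way was not counted.

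Klf6, the injury-induced member, rose in every comparison except ALT in IL33KO1. In Lung1 it went from 580.1, 717.5 and 647 to 937, 1064 and 891 CPM (0.57, SE 0.10). In Lung2 Aeg-S/L took it from 585 and 651 to 1369 and 1429 (1.18, SE 0.15), and in Lung3 WT ALT from 614.5 and 547 to 962 and 1194 (0.89, SE 0.17). These experiments had the highest Klf6 controls. In Lung4 it went from 148 and 132 to 376 to 402 CPM over the 6 treated libraries, with changes of 1.43 to 1.48 (SE 0.05 each). In Rag2gc it went from 124 and 133 to 889 and 793, a change of 2.71 (SE 0.07, adjusted p = 1.816e-09 by edgeR), the largest of the 60 mouse values. In IL33KO2 it went from 115.2 and 146 to 366 and 367 with LSL (1.49), 296 and 298 with Lysenin (1.18) and 424 and 426.5 with PlyA2EryB (1.70), SE 0.10 each. In IL33KO1 it went from 149 and 176 to 346 and 360.2 with Aeg-S/L (1.12, SE 0.25), and ALT gave 475 and 286.5 (1.23, SE 0.25, adjusted p = 0.05691).

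Klf10, the SIN3A-recruiting repressor, did not pass in Lung1 (99.96, 90.1 and 83.3 against 113, 110.4 and 93.2 CPM; 0.21, interval 0.01 to 0.41) or Lung2 (65.6 and 94.1 against 98.7 and 118; 0.44, interval -0.34 to 1.22). The Lung1 value was called with the replicate block (adjusted p = 0.02414), with DESeq2 size factors (0.04948), without DPBS replicate 1 (0.04153) and without ALT replicate 3 (0.02667). In Lung3 it rose from 68.3 and 84.6 to 104 and 119.8 (0.55, SE 0.18, adjusted p = 0.04214). In Lung4 it rose from 21.5 and 19.2 to between 46.8 and 52.8, by 1.21 to 1.36 (SE 0.06 each). In IL33KO2 it rose from 15.6 and 20.2 to between 44.8 and 52.2, by 1.35 to 1.49 (SE 0.11 each), and in Rag2gc from 15.9 and 21.5 to 85.5 and 74.7 (2.10, SE 0.12). The Lung4, IL33KO2 and Rag2gc libraries thus split cleanly by treatment. In IL33KO1 it rose from 14.1 and 23.1 to 51.3 and 50.5 with Aeg-S/L (1.45, SE 0.25, adjusted p = 0.02454) and to 50.2 and 41.2 with ALT (1.29, SE 0.25, adjusted p = 0.04995).

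Calls in the 2-library experiments could rest on 1 library. In Lung3, 1 of the 4 calls was left without WT ALT replicate 2 and 2 without WT ALT replicate 1. In IL33KO1 between 0 and 4 members were called for each stimulus when 1 library was left out, and DESeq2 called 4 with ALT and 3 with Aeg-S/L.

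**Figure D5:**
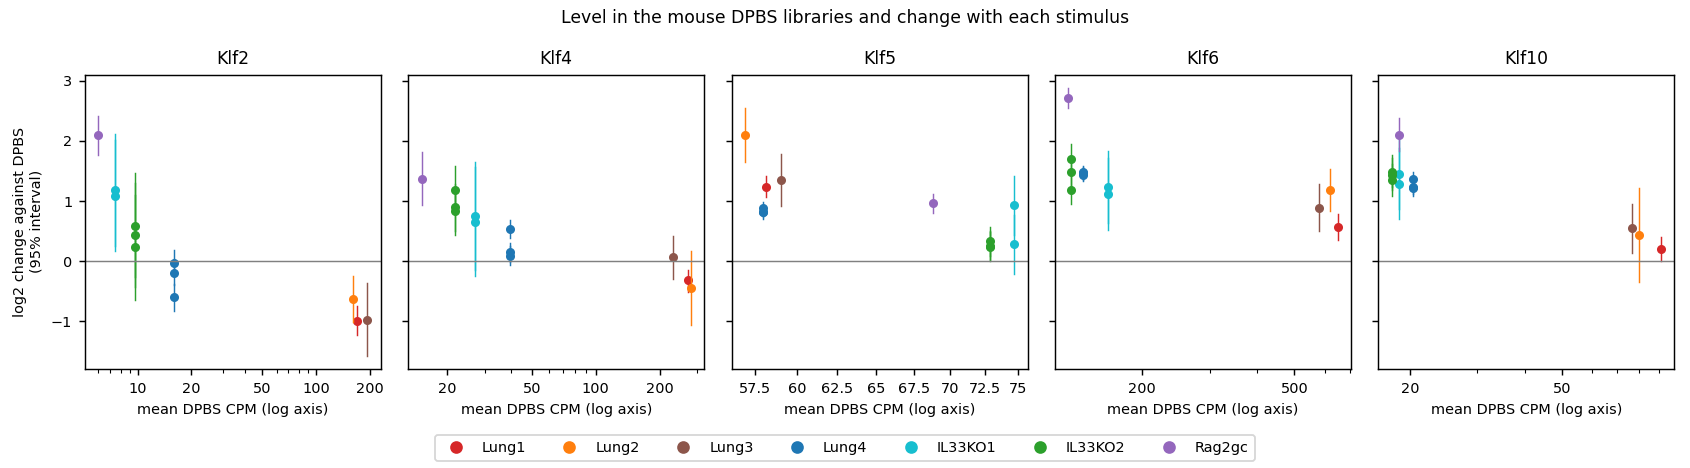
Mean CPM in the DPBS libraries (log axis) against the log2 change with each stimulus and its 95% interval, 1 panel per mouse gene and 1 colour per experiment, over the 12 comparisons. Klf2 changes are below 0 in Lung1 to Lung3, where its DPBS means are highest, and run from -0.60 (LSL in Lung4) to 2.09 (Rag2gc) in the other 4 experiments; DPBS libraries enter both axes, so this is a description.

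The same stimulus gave different changes in different mice for several members. With Aeg-S/L, Klf2 differed by 2.63 (SE 0.25) between Rag2gc and Lung2 and by 1.77 (SE 0.42) between IL33KO1 and Lung2. With ALT it differed by 2.19 (SE 0.37) between IL33KO1 and Lung1. In each case Klf2 had fallen in the experiment of unlabelled genotype, and the same direction of difference held for Klf4, at 1.73 (SE 0.40) between Rag2gc and Lung2. The Klf4 differences of IL33KO1 did not pass, from Lung1 with ALT (1.10, interval 0.30 to 1.89) or from Lung2 with Aeg-S/L (1.16, interval 0.05 to 2.27). Klf5 rose less in Rag2gc (-1.22, SE 0.24) and IL33KO1 (-1.77, SE 0.28) than in Lung2. With ALT the Klf5 difference between IL33KO1 and Lung1 did not pass (-0.29, interval -0.74 to 0.16). Its change was also smaller in IL33KO2 than in Lung4, by -0.56 with Lysenin, -0.56 with PlyA2EryB and -0.57 with LSL (SE 0.11 each), where both sets of controls had low Klf2 and Klf4. In total 13 of 30 differences passed, where 14.5%, 14.7% and 22.6% of all genes differed between IL33KO2 and Lung4 in that order of proteins, 13.5% between IL33KO1 and Lung1, 8.61% between IL33KO1 and Lung2 and 7.58% between Rag2gc and Lung2. Several of these calls rested on single libraries. Between IL33KO1 and Lung2 the Klf2 difference was not called without any 1 of 7 of the 8 libraries, all but IL33KO1 DPBS replicate 2 (adjusted p 0.05045 to 0.1028). Between Rag2gc and Lung2 the Klf4 difference was lost without 1 of 6 libraries, all but Rag2gc Aeg-S/L replicate 2 and Lung2 DPBS replicate 1 (0.05575 to 0.1248). The Klf5 difference there was lost without 1 of 4, either Rag2gc Aeg-S/L library, 1 Rag2gc DPBS library or Lung2 Aeg-S/L replicate 1 (0.05829 to 0.07656), so that as few as 2 of the 4 calls were left. Genotype and experiment cannot be told apart, and the differences from Lung1 and Lung2 also cross the separate blocks of sample numbers.

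Single proteins and KO extracts passed no test in mice either. In Lung2, Klf5 held 71.9 and 88.0 CPM with Aeg-S and 68.8 and 59.9 with Aeg-L, against 66.5 and 47.4 with DPBS and 260 and 228 with Aeg-S/L. Klf2 held 181 and 142 with Aeg-S and 207.5 and 265 with Aeg-L, against 155.7 and 168, so that its Aeg-L libraries lay above the controls (0.55, interval 0.16 to 0.93, adjusted p = 1 by edgeR). Klf6 held 724 and 583 with Aeg-S and 724 and 699 with Aeg-L, against 585 and 651. Klf10 with Aeg-S was uneven, at 73.7 and 33.6. Of 10 tests 0 passed, also by DESeq2, against 0% of all genes with either protein, where edgeR's unadjusted p was under 0.05 for 1178 genes with Aeg-S and 599 with Aeg-L of 19053. The change with both proteins exceeded the sum of the separate changes for Klf5 (1.43, SE 0.27) and Klf6 (0.89, SE 0.21) and lay below it for Klf2 (-1.17, SE 0.23), where 22.4% of all genes passed. Without either Aeg-S/L library the Klf2 and Klf6 excess was no longer called, nor was that of Klf6 without either Aeg-L library or DPBS replicate 2.

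In Lung3, aegs KO ALT left Klf5 at 70.9 and 66.2 CPM and aegl KO ALT at 69.5 and 61.6, against 147 and 155 with WT ALT and 68.5 and 49.6 with DPBS. Klf2 stood at 182 and 170.4, and 196 and 195, between the DPBS values of 141 and 247. Klf6 stood at 748 and 723, and 727 and 767.5, above the controls (614.5 and 547) and below WT ALT (962 and 1194), and Klf4 at 292.1 to 329 CPM lay above every DPBS and WT ALT library. Of 10 tests against DPBS 0 passed, also by DESeq2, against 0% of all genes with either extract, where the unadjusted p was under 0.05 for 1063 and 979 of 19092 genes. Calls of members against DPBS depended on DPBS replicate 1, and the share of all genes called without it was not counted. The DPBS libraries of Lung3 lay far apart over all genes. Their chi-square per degree of freedom was 200.6, against 8.918 to 20.27 within the other Lung3 groups. Against WT ALT, the log2 changes with aegs KO ALT and aegl KO ALT were -1.14 and -1.20 for Klf5, -0.80 and -0.81 for Klf10 and -0.55 and -0.53 for Klf6, while Klf2 rose by 0.83 and 0.98 and Klf4 did not pass (0.32 and 0.36). Of all genes 15.7% rose and 13.2% fell with aegs KO ALT, and 15.2% rose and 12.7% fell with aegl KO ALT. Of the 4 calls for each extract, 1 or 2 were left without 1 library.

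The 3 pore-forming proteins of Lung4, whose doses are not given, could be set against each other in 15 pairs, and 4 passed. With LSL, Klf2 was lower than with Lysenin (-0.57, interval -0.79 to -0.35) and than with PlyA2EryB (-0.41, interval -0.64 to -0.19). Klf4 was higher with Lysenin than with PlyA2EryB (-0.44 for PlyA2EryB, interval -0.59 to -0.28) or LSL (-0.39 for LSL, interval -0.54 to -0.23). For Klf5, Klf6 and Klf10 none of the 9 pairs passed edgeR's test, with all 95% intervals between -0.26 and 0.15. DESeq2 also called 4 of 15, and the Klf2 difference between LSL and PlyA2EryB was lost without LSL replicate 2 or PlyA2EryB replicate 1. Of all genes 22.7% differed between PlyA2EryB and Lysenin, 26.7% between LSL and Lysenin and 33.4% between LSL and PlyA2EryB.

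Across the 48 mouse libraries Klf6 and Klf10 had a Pearson r of 0.90 and Klf2 and Klf4 one of 0.80 (log2 CPM), as a description of libraries that share experiments and controls. Klf5 had r of -0.29 to Klf2 and -0.16 to Klf4, whereas all human pairs lay at 0.74 or above.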

How the data were processed

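Gene counts of 99 libraries in 13 tables were used as the authors deposited them, with 0 sample columns unused. Per the submitters' processing notes, HISAT2 2.2.1, SAMtools and featureCounts 2.0.2 were run against hg19 or mm10, with DESeq2 1.36.0 in R 4.2.2. Per the labels' protocols, RNA came from a TIANGEN kit and libraries from the NEBNext Ultra kit, which does not mark strand, and no source used here gives the strand setting of the counting. From the table of Lung4, lines without a gene ID (2) were left out. Of 57820 human IDs 51996 matched a symbol, and of 55401 mouse IDs 0 did, so mouse genes other than the 5 members, found by Ensembl ID, were not named. The table holding H292-2 is named for ALT while its labels give Aeg-S/L, and the labels were followed. Its BAPTA-AM columns are named without Aeg-S/L, unlike its EGTA columns, and here too the sample labels were followed.

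Each experiment was fitted with edgeR 4.0.16 in R 4.3.3 (filterByExpr, TMM scaling, quasi-likelihood F test, Benjamini-Hochberg adjustment over all genes, called under 0.05). Standard errors are the absolute log2 change over the square root of F, and intervals are 95%. CPM values use TMM-scaled library sizes. Differences between experiments came from joint fits, each effect against its own control. Alternatives were DESeq2 1.42.0, its size factors, no filter on low counts, a replicate block and leaving out each library. The fits were tested on simulated data. The members were named in every comparison; of each list, up to 4 called genes with the largest log2 change were named in a comparison, together with genes that recur across comparisons. Members and lists were chosen with earlier results of these data known. Likeness is Pearson's r of log2(CPM + 0.5). Promoters came from RefSeq (GRCh38.p14), and no coordinates were converted between builds. Same-numbered libraries deviated together in all 3 pairs of DPBS with ALT and Tra in H1437-1 (r of 0.47, 0.12 and 0.37) and in both pairs of DPBS with aegs KO ALT in H292-1 (0.26 each), and in no other set of pairs, so main fits carry no block and the block is an alternative. With 2 libraries a group the deviations mirror each other, so both H292-1 pairs are 1 observation.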

Additional observations from a re-analysis of the deposited data

Results flagged for a closer look

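In 28 of 50 cases tested (15 of 20 between the lines and 13 of 30 among mice, where 7.58 to 22.6% of all genes differed) the same treatment changed a member by different amounts in the cell lines or mouse experiments, each by a test of the difference itself in a joint edgeR fit (log2 scale, quasi-likelihood test with Benjamini-Hochberg adjustment under 0.05). Between H292 and H1437 the differences (H292 minus H1437) with WT ALT were 3.0 for KLF2, 1.91 for KLF4 and -0.92 for KLF6. With Aeg-S/L they were 1.22 for KLF2, 1.65 for KLF4, -0.86 for KLF6 and -0.35 for KLF10. For BAPTA-AM against Aeg-S/L they were -3.0 for KLF4, -1.08 for KLF5, 0.41 for KLF6 and 0.41 for KLF10. For EGTA against Aeg-S/L they were -1.09 for KLF2, -2.13 for KLF4, -0.80 for KLF5 and 1.90 for KLF10. For KLF10 with EGTA the effects themselves were -0.14 in H292, which did not pass, and -2.05 in H1437.

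Among mice, IL33KO2 minus Lung4 gave -0.56 for Klf5 with Lysenin, -0.56 for Klf5 and 0.80 for Klf4 with PlyA2EryB (not called without any 1 of 5 libraries, adjusted p 0.05169 to 0.08655), and -0.57 for Klf5 and 1.03 for Klf4 with LSL. IL33KO1 minus Lung1 with ALT gave 2.19 for Klf2 and 1.11 for Klf10. IL33KO1 minus Lung2 with Aeg-S/L gave 1.77 for Klf2 and -1.77 for Klf5. Rag2gc minus Lung2 with Aeg-S/L gave 2.63 for Klf2, 1.73 for Klf4, -1.22 for Klf5 and 1.46 for Klf6. The controls of Lung1 to Lung3 held more Klf2 and Klf4 than those of the other mouse experiments, and the part of that in these differences was not tested. Line or genotype and experiment cannot be told apart.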

How the results depend on the processing

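Counts of called member values moved little with the tool or scaling. Of stimulus comparisons 70 values were called (DESeq2 74, size factors 70, no low-count filter 81, replicate block 69, leaving out 1 library 67 to 75). The same settings gave 28 (28, 27, 27, 26, 22 to 30) for KO against WT extract, 20 (22, 20, 22, 18, 17 to 20) for stimulus with inhibitor against DPBS, and 24 (25, 24, 25, 24, 22 to 26) for inhibitor against stimulus. For single proteins 0 were called (1 with no filter, Klf10 with Aeg-S in Lung2 at -0.57; 0 to 1 without a library), and for KO extracts against DPBS 0 (1 with no filter, KLF2 with aegl KO ALT in H292-1 at 0.70; 0 to 9 without a library). For both proteins against their sum it was 7 (DESeq2 8, 5 to 8), between Lung4 proteins 4 (4, 3 to 5), and for differences between experiments 28 (DESeq2 30, size factors 27, no filter 36, 23 to 37). Each count without a library keeps the main calls of all experiments not refitted, so these ranges are narrow by construction. Single comparisons moved more, from 5 calls to 2 with ALT in H1437-1, 4 to 1 with WT ALT in Lung3 and 2 to 0 with Aeg-S/L in IL33KO1. 1 value changed sign with a call: Klf2 with Lysenin in IL33KO2 was 0.23 and not called, and without DPBS replicate 1 it was -0.33 and called (1.17 without DPBS replicate 2). Of uncalled values, 53 changed sign under some setting.

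Replicate numbers are shared by groups, but of 124 same-numbered pairs of libraries 5 had correlated deviations over 0.1 (range -0.24 to 0.47). Where both groups hold 2 libraries, the pairs mirror each other and have equal r, so 124 overstates the independent pairs. The 5 are all 3 pairs of DPBS with ALT and Tra in H1437-1, where the block changed no member's call, and both of DPBS with aegs KO ALT in H292-1. Elsewhere the block left 3 of 5 calls for Aeg-S/L with Tra against DPBS in H1437-2, 3 of 4 for each KO extract against WT ALT in Lung3, and 0 of 1 and 1 of 2 for ALT and Aeg-S/L in IL33KO1. It added 1 call, Klf10 with ALT in Lung1 (0.21).

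Over all genes, counts of calls moved by over 1.5 times in 17 of 61 comparisons with DESeq2, 0 of 56 with size factors, 20 of 56 with no filter and 2 of 42 with the block. In H1437-1 they went from 766 (ALT), 46 (ALT with Tra against DPBS) and 826 (against ALT) to 1189, 316 and 1388 with DESeq2 and 1153, 1050 and 1864 with no filter. In H1437-2, Aeg-S/L went from 1140 to 1924 and 2143, Aeg-S/L with Tra from 84 to 160 and 306 against DPBS and from 216 to 407 and 447 against Aeg-S/L, the sum test from 429 to 1415 with DESeq2, and Aeg-S and Aeg-L from 0 to 278 and 9 with no filter. The aegs KO ALT and aegl KO ALT counts against DPBS went from 181 and 128 to 339 and 287 (no filter 426 and 488) in H1437-4, and aegl KO ALT from 20 to 277 and 763 in H292-1, where aegs KO ALT went from 0 to 18 with no filter. In Lung2, Aeg-S went from 0 to 18 and 775 and Aeg-L from 0 to 2 and 132, and in Lung3 the extracts went from 0 to 10 and 22 (no filter 97 and 119). In IL33KO1, ALT went from 530 to 2294, 2803 and 266 (block) and Aeg-S/L from 1985 to 4078, 4648 and 1074, and the difference from Lung2 from 1733 to 3003 and 3092. The Rag2gc difference from Lung2 went from 1491 to 2812 with no filter. KLF2 in human controls rests on 18 to 133 counts a library, which limits its precision there.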
